A study of Mus musculus and Rattus norvegicus with 36 samples.

Results

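The blood vessel lining was followed through 37 endothelial and angiogenesis genes in the liver of rats and in the liver and kidney of mice fed graded dietary selenium (Se). The genes were taken from a list of symbols that was chosen with earlier results of these data known. A probe set counted when the array annotation gave it that symbol alone, and where a gene had several, the one of highest mean level in that tissue's arrays stood for it, or in the arrays of both tissues together where liver was compared with kidney. All 37 genes were measured on the mouse array, which held 18193 genes with such a probe set, and 34 of the 37 on the rat array, which held 14217. Cdh5, Robo4 and Cd34 had no such probe set in rat. Of the 37, 33 are pan-endothelial genes (30 measured in rat), 3 are scavenger receptors typical of sinusoidal endothelium (Stab1, Stab2 and Lyve1), and 1 is Vegfa, which tissue cells secrete to act on endothelium.

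Endothelial cells line every vessel. They receive VEGF-A through the receptor tyrosine kinases KDR and FLT1, and angiopoietins through TEK, with TIE1 as its partner. New sprouts are led by tip cells that are known to express ESM1, ANGPT2 and APLN, and endothelial identity is kept by ETS family factors (ERG, FLI1, ETS1) and SOXF factors (SOX7, SOX17, SOX18). The liver sinusoid is lined by a distinct endothelium, open and without a continuous basement membrane, which clears macromolecules through STAB1 and STAB2 and carries LYVE1. Capillaries elsewhere, those of the kidney among them, carry little of these scavenger receptors and more of the continuous or diaphragmed vessel genes such as EMCN, CD34 and PLVAP.

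Male weanling Holtzman rats were fed an Se-deficient torula-yeast diet for 28 days, given as it was (0) or with sodium selenite at 5, 2, 0.8, 0.24 or 0.08 μg Se/g, and male weanling mice from 1 wild-type colony of mainly C57 black background were fed the same kind of diet for 35 days at 0.2, 0.05 and 0 μg Se/g. All diets held added vitamin E and methionine, which the controls received too. The Se-adequate diets were 0.24 μg Se/g in rats and 0.2 μg Se/g in mice, 5 μg Se/g was a toxic diet, and the question was which transcripts mark each Se status. Each diet and tissue had 3 arrays, which gave 18 rat liver, 9 mouse liver and 9 mouse kidney arrays. By the study's methods each mouse diet group held 3 animals and gave both tissues, so liver and kidney arrays share mice, and the labels do not say which. The arrays at 0.08 and 0.8 came from another rat study than those at 0, 0.24, 2 and 5, so the 2 sets were fitted apart and levels between them carry separate processing. Livers were perfused with cold salt solution before removal, and whole tissue was extracted, so more endothelial cells and more RNA per endothelial cell cannot be told apart.

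Array medians lay between 6.17 and 6.29 on the log2 scale in all 36 arrays. Rat replicates of a diet correlated at 0.972 to 0.995, and the lowest value was between replicates 1 and 3 at 2 μg Se/g. Those arrays had 1182 and 1032 probe sets beyond 2-fold of the mean of the other arrays of their diet, against 89 to 339 in the other rat arrays, so results that use the 2 μg Se/g rats are given with that in view. Array number limits the precision, and with 3 arrays against 3 no exact test of a single gene could go below a two-sided p of 0.1. All adjusted p below are from limma with Benjamini-Hochberg adjustment over all probe sets of the array, and a gene is said to have risen or fallen at an adjusted p under 0.05. The tissue labels were borne out by their markers: all 11 measured kidney genes were lower in mouse liver than in kidney, and 10 of 11 hepatocyte genes were higher.

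In the comparisons below, Tie1, Emcn and Esm1 rose in rat liver at 5 μg Se/g. Stab2, the sinusoidal receptor, did not pass the test there and was far higher in mouse liver than in kidney. The upstream sequences of these 4 genes are shown as examples. Each is the mouse RefSeq sequence of build GRCm38.p6 on the strand of the gene, from 250 bases before to 50 bases after the start, 5′ to 3′. Capitals mark AGGAAG, a form of the ETS site, on either strand. Other and shorter forms of the site were not marked or counted. They lie at chr4:118489800-118490099 (Tie1, minus strand), chr3:137340828-137341127 (Emcn, plus strand), chr13:113209409-113209708 (Esm1, plus strand) and chr10:87007893-87008192 (Stab2, minus strand).
Tie1: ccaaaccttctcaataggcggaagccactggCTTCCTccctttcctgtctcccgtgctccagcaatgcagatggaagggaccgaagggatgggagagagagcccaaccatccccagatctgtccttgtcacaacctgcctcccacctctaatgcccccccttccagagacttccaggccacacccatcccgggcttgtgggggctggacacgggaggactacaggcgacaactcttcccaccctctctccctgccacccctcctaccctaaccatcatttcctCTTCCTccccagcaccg
Emcn: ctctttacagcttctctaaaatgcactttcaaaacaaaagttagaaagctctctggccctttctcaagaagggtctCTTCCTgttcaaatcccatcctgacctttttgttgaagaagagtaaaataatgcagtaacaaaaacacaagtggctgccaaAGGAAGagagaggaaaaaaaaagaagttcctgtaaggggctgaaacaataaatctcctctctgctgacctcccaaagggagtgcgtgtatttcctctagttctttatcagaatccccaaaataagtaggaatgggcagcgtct
Esm1: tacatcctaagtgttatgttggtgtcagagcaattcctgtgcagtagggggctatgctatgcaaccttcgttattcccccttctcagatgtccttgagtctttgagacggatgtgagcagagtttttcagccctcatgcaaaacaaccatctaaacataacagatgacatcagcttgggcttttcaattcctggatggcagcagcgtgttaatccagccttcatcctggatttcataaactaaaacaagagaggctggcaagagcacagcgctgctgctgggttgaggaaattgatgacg
Stab2: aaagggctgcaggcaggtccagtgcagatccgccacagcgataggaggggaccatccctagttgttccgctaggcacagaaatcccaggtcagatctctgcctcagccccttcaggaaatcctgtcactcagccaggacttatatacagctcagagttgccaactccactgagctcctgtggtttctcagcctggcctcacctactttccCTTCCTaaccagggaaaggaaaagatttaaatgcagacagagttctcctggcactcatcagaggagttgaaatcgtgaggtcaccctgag
The Tie1 and Emcn windows each held 2 copies of AGGAAG, the Stab2 window 1 and the Esm1 window 0. Of the 37 genes, 21 had such a window in the reference, with 27 windows in all. Of the 27, 14 (51.9%) held AGGAAG, against 35.4% of all 32851 mouse windows. The SOX motif AACAAT, which was searched too, was in 3 of the 27 (11.1%), against 10.7% of all windows. A match of letters is a description of the window only, and the changes it stands beside were measured in rat, whose upstream sequences were not used here.

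In rat liver, 15 of the 34 measured genes were higher at 5 than at 0.24 μg Se/g, and 0 were lower. The share of all genes that were higher was 3.26% (463 of 14217). The list was chosen with earlier results of these data known, so that share is set beside it as a description only. The median log2 change over the 34 genes was 0.67, against -0.005 over all genes, and 28 of the 34 were above 0 (49% of all genes). Lower genes made up 0.809% of the array. In 20 of the 34 the 3 rats at 5 lay above all 3 rats at 0.24, against 15.1% of all genes. All 15 were pan-endothelial genes: none of Stab1, Stab2, Lyve1 and Vegfa passed the test. By role, the higher genes were 4 of the 7 ligands and secreted proteins, 4 of the 6 junction and surface proteins, 3 of the 6 transcription factors, 3 of the 9 receptors and 1 of the 3 genes of caveolae, diaphragms and nitric oxide.

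**Figure D1:**
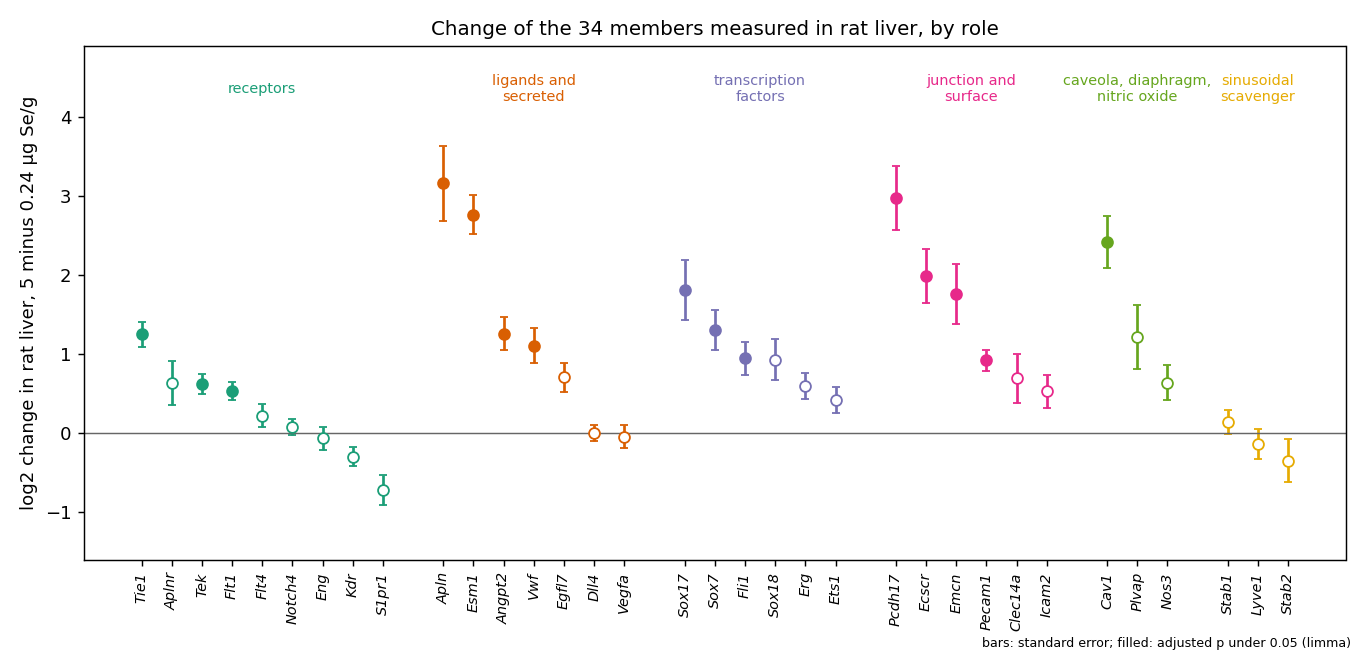
The vertical axis gives the log2 change in rat liver, 5 minus 0.24 μg Se/g, for each of the 34 genes, grouped by role, with the standard error as bars and filled points for an adjusted p under 0.05. The 15 filled points lie between 0.53 (Flt1) and 3.16 (Apln), and the 3 sinusoidal genes lie between -0.35 and 0.14.

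Among the ligands and secreted proteins, Apln, which encodes the peptide apelin, had log2 levels of 9.23, 9.99 and 7.42 in the 3 rats at 5 μg Se/g and of 5.77, 5.85 and 5.53 in the 3 at 0.24. Esm1, a proteoglycan secreted by activated endothelium, was at 6.48, 7.60 and 6.81 at 5 and at 4.02, 4.21 and 4.37 at 0.24. Neither gene showed any overlap between the diets. The log2 change was 3.16 (SE 0.48, adjusted p = 0.0051) for Apln, an 8.95-fold difference, and 2.76 (SE 0.25, adjusted p = 0.00037) for Esm1, a 6.79-fold difference and the lowest adjusted p of the 34 genes. The other Apln probe set gave 0.91, which did not pass the test. The probe sets used for Apln and Esm1 lay below the array median on 15 of the 18 rat arrays.

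Angpt2, the angiopoietin that loosens vessel walls for remodelling, was at 6.80, 6.55 and 5.79 at 5 and at 5.02, 5.31 and 5.04 at 0.24, a rise of 1.26 (SE 0.20, adjusted p = 0.0070). Vwf, the clotting protein that endothelium stores and releases, was at 8.61, 8.59 and 7.61 at 5 and at 7.18, 7.31 and 7.0 at 0.24, a rise of 1.11 (SE 0.22, adjusted p = 0.020). In both genes replicate 3 at 5 μg Se/g was well below the other rats of its diet and still above every rat at 0.24. Angpt2 lay below the array median on 16 of the 18 rat arrays. Egfl7, a matrix protein of growing vessels, changed by 0.70 (adjusted p = 0.066) without overlap, while the Notch ligand gene Dll4 changed by 0.00 (95% interval -0.24 to 0.24) and did not pass the test.

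Vegfa stood at 10.23, 10.10 and 10.24 at 5 and at 10.24, 10.06 and 10.40 at 0.24, so that the diets overlapped fully. Its log2 change was -0.04 (SE 0.15, adjusted p = 0.94), with a 95% interval from -0.38 to 0.29.

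The 4 junction and surface genes that rose differed in size. Pcdh17, a protocadherin, was at 9.15, 8.53 and 7.04 at 5 and at 5.52, 5.16 and 5.14 at 0.24. Emcn, the sialomucin of capillary and venous endothelium, was at 10.26, 10.22 and 8.87 at 5 and at 8.26, 7.83 and 7.97 at 0.24. Ecscr, a surface protein of endothelial migration, was at 8.36, 8.42 and 7.25 at 5 and at 6.34, 5.95 and 5.78 at 0.24. In all of them every rat at 5 was above every rat at 0.24, and replicate 3 was again the lowest of its diet. Pcdh17 rose by 2.97 (SE 0.41, adjusted p = 0.0033). Emcn rose by 1.76 (SE 0.38, adjusted p = 0.032) and Ecscr by 1.99 (SE 0.34, adjusted p = 0.010). All 3 probe sets of Pcdh17 were called, with changes of 2.97 to 3.73. The one used lay below the array median on 15 of the 18 rat arrays.

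Pecam1, the adhesion molecule at the contacts between endothelial cells, is expressed along all vessels. It was at 8.77, 8.96 and 8.39 at 5 and at 7.88, 7.82 and 7.64 at 0.24, a rise of 0.92 (SE 0.13, adjusted p = 0.0036). The surface genes Icam2 (0.53, adjusted p = 0.26) and Clec14a (0.69, adjusted p = 0.32) did not pass the test.

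Cav1, the coat protein of caveolae, was at 9.61, 9.74 and 8.25 at 5 and at 7.0, 7.06 and 6.31 at 0.24. The diets did not overlap, and the rise was 2.41 (SE 0.33, adjusted p = 0.0033), with all 3 of its probe sets called. Plvap, the protein of the diaphragms that close fenestrae, changed by 1.21 with a wide error (SE 0.40, adjusted p = 0.16), and Nos3, the endothelial nitric oxide synthase, by 0.64 (adjusted p = 0.19); neither passed the test.

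**Figure D2:**
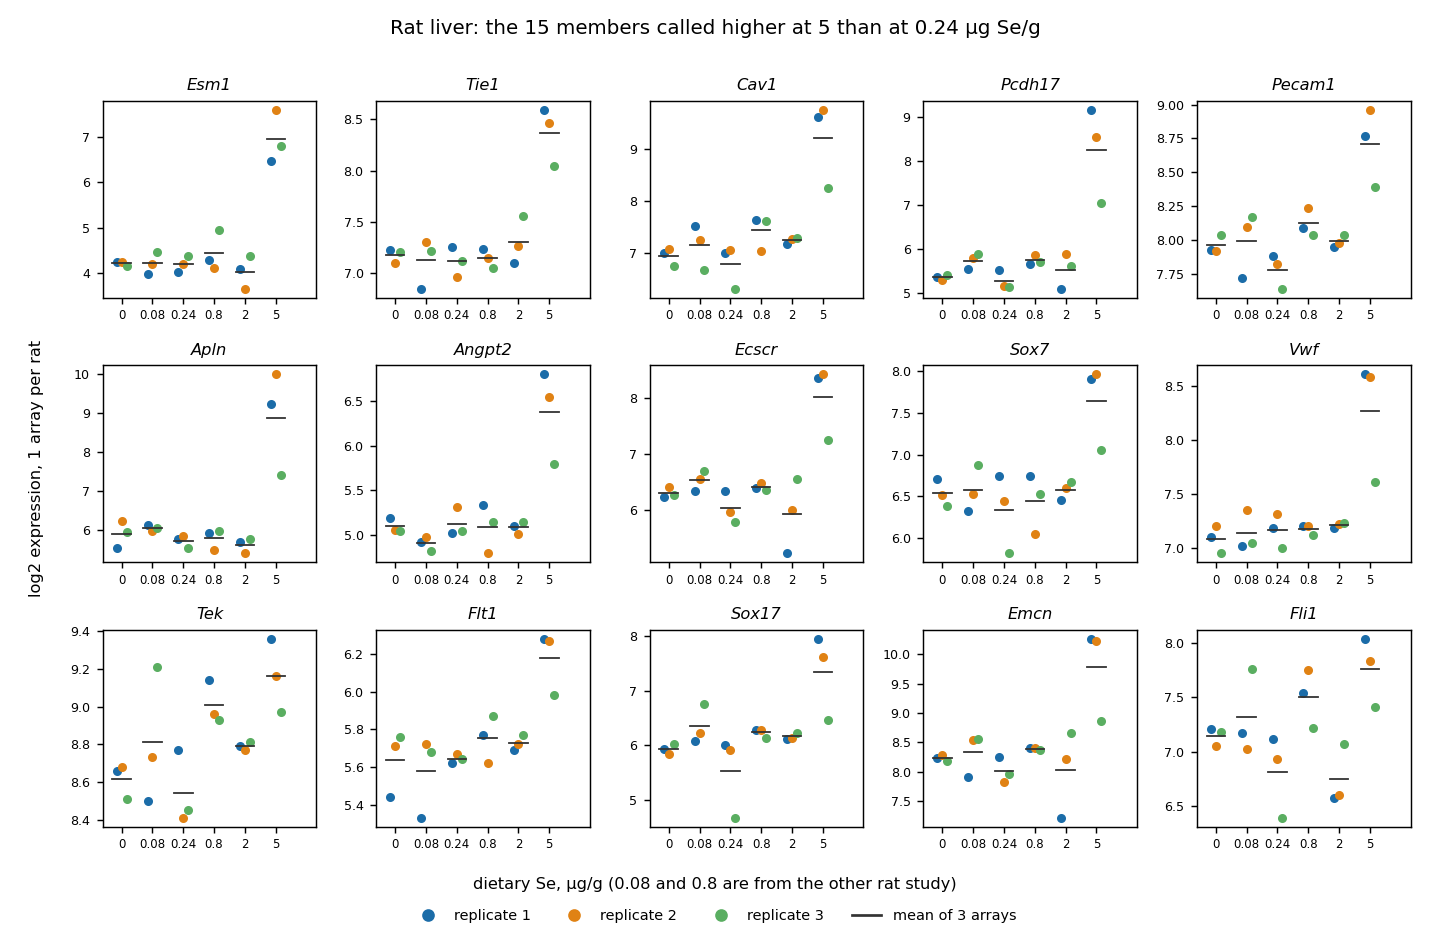
Each panel gives the log2 expression of 1 of the 15 genes in the 18 rat liver arrays against dietary Se in μg/g, with 1 point per rat coloured by replicate and a line at the mean of 3. The mean was highest at 5 μg Se/g in all 15 panels, with replicate 3 the lowest of the 3 rats at 5 in 14 of the 15 genes.

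The receptors were divided. Tie1 was at 8.59, 8.46 and 8.05 at 5 and at 7.26, 6.97 and 7.12 at 0.24, a rise of 1.25 (SE 0.15, adjusted p = 0.0019). Tek, its signalling partner, was at 9.36, 9.16 and 8.97 at 5 and at 8.77, 8.41 and 8.45 at 0.24, a smaller rise of 0.62 (SE 0.12, adjusted p = 0.021). Flt1, a VEGF-A receptor that also acts as a decoy, was at 6.28, 6.27 and 5.98 at 5 and at 5.62, 5.67 and 5.64 at 0.24, a rise of 0.53 (SE 0.11, adjusted p = 0.025). None of these overlapped between the diets, but the Flt1 probe set was below the array median on all 18 arrays, and 1 of the 3 Flt1 probe sets was called.

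Kdr, the main signalling receptor for VEGF-A, was at 11.03, 11.12 and 11.32 at 5 and at 11.59, 11.30 and 11.48 at 0.24. The diets overlapped, and the change was -0.30 (SE 0.12, adjusted p = 0.27, 95% interval -0.58 to -0.02). S1pr1, the sphingosine-1-phosphate receptor that steadies endothelial junctions, was the only gene of the 34 that lay lower without overlap at 5 (background 11.7%), at 11.24, 12.07 and 11.85 against 12.42, 12.45 and 12.45, and its change of -0.72 (SE 0.19, adjusted p = 0.076) did not pass the test. It was singled out here after its values were seen. Against 2 μg Se/g, however, both Kdr and S1pr1 were called lower by the probe set used, though not by a second one, as given below. The remaining receptors were not called: Aplnr, the apelin receptor, changed by 0.64 (adjusted p = 0.31), the lymphatic VEGF receptor gene Flt4 by 0.22, Notch4 by 0.08 and the TGF-β co-receptor gene Eng by -0.07. Aplnr and Flt4 were also below the array median on all 18 arrays.

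Of the transcription factors, Sox17 was at 7.95, 7.62 and 6.47 at 5 and at 6.01, 5.91 and 4.67 at 0.24, a rise of 1.81 (SE 0.38, adjusted p = 0.025). Sox7 was at 7.91, 7.96 and 7.06 at 5 and at 6.75, 6.45 and 5.82 at 0.24, a rise of 1.31 (SE 0.26, adjusted p = 0.020). Fli1, an ETS factor shared by endothelium and blood cells, was at 8.04, 7.84 and 7.41 at 5 and at 7.12, 6.93 and 6.39 at 0.24, a rise of 0.95 (SE 0.21, adjusted p = 0.034). None overlapped, although in each replicate 3 at 0.24 was the lowest of its diet. The probe sets of these genes were not alike: those of Fli1 ranged from -0.18 to 0.95 with 2 of 4 called, and those of Sox17 from -0.17 to 1.81 with 1 of 3 called. The Sox17 probe set used lay below the array median on 12 of the 18 rat arrays. Sox18 (0.93, adjusted p = 0.096), Erg (0.59, adjusted p = 0.085) and Ets1 (0.42, adjusted p = 0.25) were higher at 5 in every rat but did not pass the test.

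The sinusoidal genes gave a different picture from most pan-endothelial genes. Stab2 was at 9.20, 9.29 and 10.27 at 5 and at 10.18, 9.65 and 9.98 at 0.24. Stab1 was at 8.24, 8.34 and 8.67 at 5 and at 8.40, 8.16 and 8.26 at 0.24. Lyve1 was at 10.41, 10.44 and 10.92 at 5 and at 10.99, 10.58 and 10.61 at 0.24. All 3 overlapped between the diets, and replicate 3 at 5 μg Se/g, the lowest rat for most pan-endothelial genes that rose, was the highest of its diet for each of them. The changes were -0.35 for Stab2 (SE 0.27, adjusted p = 0.62, 95% interval -0.98 to 0.28), 0.14 for Stab1 (SE 0.15, adjusted p = 0.74, interval -0.21 to 0.50) and -0.14 for Lyve1 (SE 0.18, adjusted p = 0.80, interval -0.56 to 0.29), and a second Lyve1 probe set changed by 0.13. These intervals leave room for a fall or a rise of moderate size. The mean log2 level of the 30 pan-endothelial genes was 6.99 to 7.18 in the rats at 0.24 and 7.67 to 8.35 in those at 5, while that of the 3 sinusoidal genes was 9.46 to 9.86 and 9.29 to 9.95. Of 13 other genes of sinusoidal endothelium, such as Clec4g and Mrc1, 0 were called (4.07% of all genes were called in either direction), with a median change of 0.07.

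**Figure D3:**
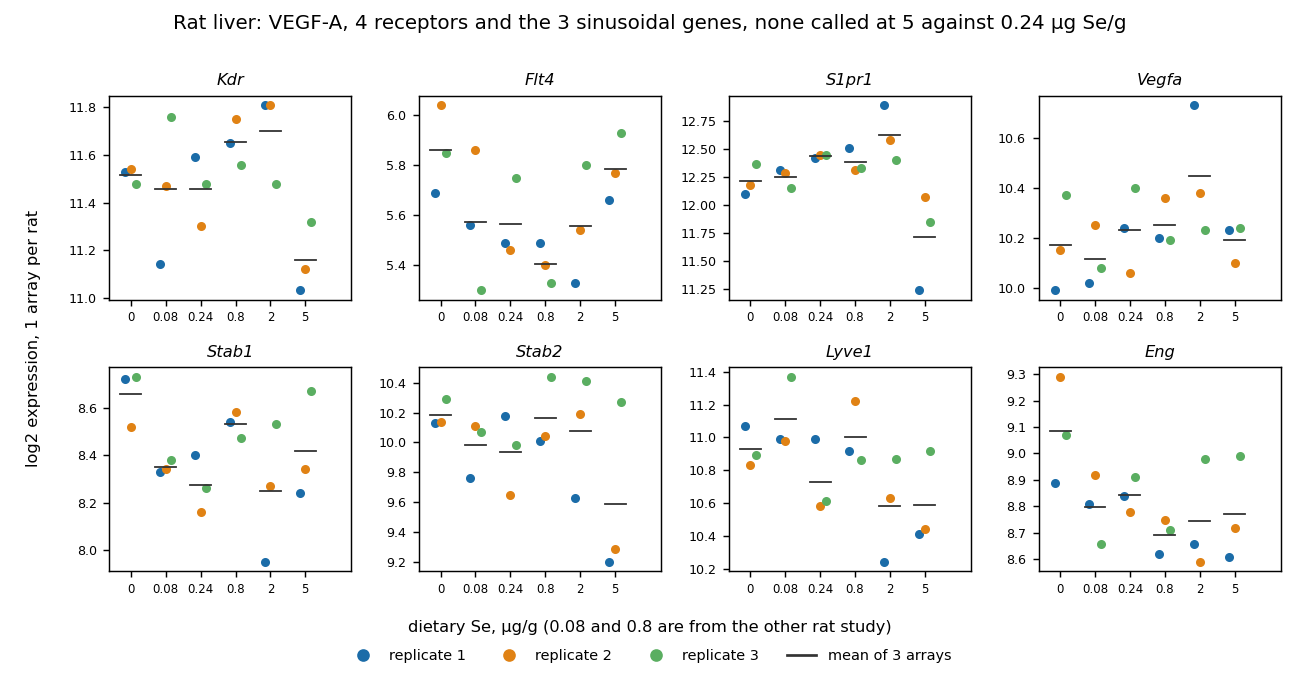
Each panel gives the log2 expression of Vegfa, 4 receptors or 1 of the 3 sinusoidal genes in the 18 rat liver arrays against dietary Se in μg/g, with 1 point per rat coloured by replicate and a line at the mean of 3. At 5 μg Se/g the Kdr and S1pr1 means lie at the bottom of their panels, and replicate 3 is the highest of the 3 rats for Stab1, Stab2 and Lyve1.

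The rats at 5 μg Se/g were not alike. Over the 15 genes that rose, the mean log2 level per array was 8.36, 8.39 and 7.42 in replicates 1 to 3 at 5, and 6.19 to 6.79 in the other 15 rat arrays, so replicate 3 lay between. That array had a GAPDH 3′ minus 5′ control difference of 0.26 and an actin one of 1.72 on the log2 scale, against 0.13 to 0.14 and 1.38 to 1.47 in the other arrays at 5, and 0.17 to 0.24 and 1.49 to 1.54 at 0.24. The part of RNA quality in its lower levels was not tested. Without it 19 members were called (1065 of all 31042 probe sets, against 875 with every array), while without replicate 1 or replicate 2 at 5 the count was 7 (351 and 389 of all probe sets). Leaving out 1 rat at 0.24 gave 12, 10 and 7 members for replicates 1, 2 and 3 (435, 467 and 461 of all probe sets). Esm1, Tie1, Cav1, Pcdh17, Pecam1, Apln and Angpt2 were called in all 6 of these fits, and the other 8 genes lost their call in 3 to 5 of them.

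Further genes of the angiogenic pathways were higher at 5 μg Se/g as well. Of 56 measured, 18 were higher and 1 was lower (3.26% and 0.809% of all genes), and the median change was 0.47. That list too was chosen with earlier results of these data known. Mcam, an endothelial and pericyte adhesion molecule, rose by 2.07 (SE 0.25, adjusted p = 0.0019), Jam2, a junction protein, by 1.55 (SE 0.23, adjusted p = 0.0047), the ETS factor gene Elk3 by 1.28 (SE 0.18, adjusted p = 0.0034) and Cd93, a C-type lectin of vessels, by 1.04 (SE 0.13, adjusted p = 0.0026). The lower gene was Hey1, a Notch target, which fell by 0.88 (SE 0.14, adjusted p = 0.0059) and is named after its value was seen. Of 22 hypoxia response genes 0 were called (4.07% of all genes were called in either direction). Their lowest adjusted p was 0.10 for Egln3, which changed by 2.20 (SE 0.63). The study's own analysis listed Egln3 as significantly higher at 5 μg Se/g. That analysis called 1193 transcripts, against 875 probe sets in the fit used here and 1193 in a fit on all 18 rat arrays. The mean level of the hypoxia list was 8.21 to 8.33 at 0.24 and 8.39 to 8.55 at 5, without overlap.

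Markers of other cells of the liver also moved at 5 μg Se/g. Of 15 mural and stellate cell genes 5 were higher, among them the smooth muscle gene Tagln (2.68, SE 0.43, adjusted p = 0.0070), Col1a1 (1.62, SE 0.22, adjusted p = 0.0034), Myh11 (1.29, SE 0.21, adjusted p = 0.0081) and Des (0.93, SE 0.16, adjusted p = 0.011), and 2 were lower (3.26% and 0.809% of all genes), the stellate cell genes Reln (-1.95, SE 0.39, adjusted p = 0.022) and Lrat (-2.10, SE 0.47, adjusted p = 0.037). The fifth higher gene was Acta2 (0.90, SE 0.21, adjusted p = 0.047), and it and Lrat are named after their values were seen. The mean level of that list was 7.21 to 7.44 at 0.24 and 7.61 to 7.80 at 5. Single genes passed the test in other lists: Krt19 of bile duct cells rose by 2.63 (adjusted p = 0.0018, 1 of 5 genes, list mean 5.62 to 6.48 at 0.24 and 6.35 to 7.13 at 5), and Podxl, which podocytes and vascular endothelium share, by 1.65 (adjusted p = 0.012, 1 of 11 kidney genes, list mean 5.21 to 5.33 and 5.27 to 5.29). Clec4f of Kupffer cells fell by 1.78 (adjusted p = 0.014, 1 of 11, list mean 9.40 to 9.71 and 9.36 to 9.46), and Gzma of lymphocytes fell by 0.75 (adjusted p = 0.043, 1 of 8, list mean 5.70 to 6.01 and 5.89 to 6.04). None of 12 hepatocyte genes was called (list mean 13.72 to 13.79 and 13.64 to 13.74), nor any of 3 erythroid genes, whose mean was 7.92 to 8.82 at 0.24 and 8.94 to 9.57 at 5. The part of these cells in the endothelial result was not tested.

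Below the toxic diet no endothelial gene passed the test. The comparison of 2 with 0.24 μg Se/g, which shares the 0.24 rats with the one above, called 0 of 34 genes, against 0.00703% of all genes. At an unadjusted p under 0.05 it had 0 members, against 15.3% of all probe sets. Changes ran from -0.41 (Icam2) to 0.63 (Sox17), and the lowest adjusted p were those of Kdr (0.25, SE 0.12, adjusted p = 0.33), Tek (0.25, SE 0.12, adjusted p = 0.34) and Icam2 (-0.41, SE 0.21, adjusted p = 0.35). The median distance from a change to the end of its 95% interval was 0.48.

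In Se deficiency, 0 against 0.24 μg Se/g, 0 of 34 genes were called (0.00703% of all genes) and 1, Stab1, had an unadjusted p under 0.05 (3.4% of all probe sets). Stab1 was at 8.72, 8.52 and 8.73 at 0, above all rats at 0.24, and changed by 0.38 (SE 0.15, adjusted p = 0.999). Flt4 changed by 0.29 (SE 0.14) and Erg by 0.31 (SE 0.16), both with an adjusted p of 0.999. The range over the genes was -0.22 (S1pr1) to 0.40 (Sox17).

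In the other rat study, 0.8 against 0.08 μg Se/g, 0 of 34 were called, as was 0% of all genes, and Plvap and Egfl7 had an unadjusted p under 0.05 (4.58% of all probe sets). Plvap changed by -0.33 (SE 0.12), Egfl7 by 0.26 (SE 0.11) and Stab1 by 0.18 (SE 0.09), each with an adjusted p of 0.97. Changes lay between -0.33 and 0.28.

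The step from 2 to 5 μg Se/g was tested directly and called 18 of the 34 genes, 16 higher and 2 lower (3.21% and 1.29% of all genes). Esm1 rose by 2.93 (SE 0.25, adjusted p = 0.00069), Apln by 3.26 (SE 0.48, adjusted p = 0.0080), Tie1 by 1.06 (SE 0.15, adjusted p = 0.0080) and Pcdh17 by 2.72 (SE 0.41, adjusted p = 0.0086). Called here, and not against 0.24, were Sox18 (1.09, SE 0.26, adjusted p = 0.047), Icam2 (0.94, SE 0.21, adjusted p = 0.038) and Egfl7 (0.84, SE 0.18, adjusted p = 0.033), while Tek (0.37, adjusted p = 0.11) and Sox17 (1.18, adjusted p = 0.097) missed the threshold. The remaining 9 higher genes were Pecam1, Flt1, Emcn, Ecscr, Sox7, Cav1, Vwf, Angpt2 and Fli1, with changes of 0.45 to 2.09. The lower genes were the receptors S1pr1, at 12.89, 12.58 and 12.40 at 2 (-0.91, SE 0.19, adjusted p = 0.031), and Kdr, at 11.81, 11.81 and 11.48 at 2 (-0.55, SE 0.12, adjusted p = 0.035). For both, all rats at 5 lay below all rats at 2 (9.36% of all genes did). A second Kdr probe set changed by 0.058, and neither it nor a second S1pr1 probe set was called. With a second probe set the calls of Apln, Fli1 and Icam2 were lost too, and Flt1 changed sign. Vegfa (-0.26, SE 0.15, adjusted p = 0.31), Stab1 (0.17, adjusted p = 0.58), Stab2 (-0.49, adjusted p = 0.30) and Lyve1 (0.01, adjusted p = 0.99) did not pass the test. This comparison shares the 5 μg Se/g rats with the one against 0.24, rests on the arrays at 2 that stood apart, and called 0 members, with 9 of all 31042 probe sets in place of 1037, when only the arrays at 2 and 5 were fitted. Without replicate 1, 2 or 3 at 5 it called 5, 5 and 22 members, with 149, 198 and 1083 of all probe sets. Without replicate 1, 2 or 3 at 2 it called 7, 4 and 20, with 238, 146 and 8262.

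In mice, no diet comparison called any of the 37 genes. Against 0.2 μg Se/g, liver at 0 and at 0.05 gave changes of -0.28 to 0.28 and -0.20 to 0.31, and kidney gave -0.24 to 0.26 and -0.15 to 0.19. The shares of all genes called were 0.0385%, 0%, 0.0165% and 0%, and the counts of members at an unadjusted p under 0.05 were 0, 1, 1 and 0 (4.63%, 1.95%, 5.42% and 2.91% of all probe sets). In liver, deficient mice differed most in p for Ets1 (0.28, SE 0.13), Cd34 (-0.28, SE 0.14) and Pcdh17 (0.21, SE 0.13), each with an adjusted p of 0.93, and in kidney for Ets1 (0.24, SE 0.10), Apln (0.15, SE 0.08) and Cd34 (-0.24, SE 0.12), each with 0.89. At 0.05 μg Se/g the lowest p belonged to Pcdh17, Lyve1 and Cav1 in liver and to Erg, Apln and Dll4 in kidney, with adjusted p of 1. The test of the difference between the tissues in their response to deficiency called 0 members (0.0055% of all genes), and Angpt2 alone had an unadjusted p under 0.05 (5.79% of all probe sets), with a difference of 0.34 (SE 0.15, adjusted p = 0.83). No mouse was fed above the adequate level.

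Mouse liver and kidney, over the 3 diets, differed in most of these genes, as in most genes of the array. Of the 37, 13 were higher in liver, 19 were higher in kidney and 5 were not called (81.4% of all genes were called, 37% higher and 44.4% lower in liver). Without overlap, 11 were higher in liver (22.9% of all genes) and 13 lower (28.3%). The share of members is near that of the array, so what separates the genes is which tissue each favoured. The study processed the tissues apart, and the differences carry that. The 18 arrays were fitted as separate samples although each mouse gave both tissues. Taking the same-numbered liver and kidney arrays within a diet as 1 block, the count was again 32.

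All 3 sinusoidal genes were higher in liver. Over 9 arrays a tissue, Stab2 ran from 8.78 to 9.09 (median 9.02) in liver and from 6.18 to 6.57 (median 6.25) in kidney. Stab1 ran from 8.23 to 8.31 (median 8.28) and from 6.47 to 6.88 (median 6.55), and Lyve1 from 6.16 to 6.94 (median 6.63) and from 4.33 to 4.68 (median 4.62). None overlapped, and the differences were 2.71 (SE 0.05, adjusted p = 1.5e-18) for Stab2, 1.66 (SE 0.05, adjusted p = 1.0e-15) for Stab1 and 1.98 (SE 0.09, adjusted p = 1.0e-12) for Lyve1. A further 10 pan-endothelial genes were higher in liver. Vwf led with 1.26 (SE 0.06, adjusted p = 1.3e-12; 5.83 to 6.22, median 6.0, against 4.62 to 4.9, median 4.77), although it lay below the median of all probe sets on every array of both tissues. Flt4 followed with 1.18 (SE 0.05, adjusted p = 1.1e-13; 8.07 to 8.26 against 6.85 to 7.2), S1pr1 with 1.17 (SE 0.05, adjusted p = 4.3e-14; 7.92 to 8.14 against 6.72 to 7.0), Flt1 with 0.46 (SE 0.05, adjusted p = 3.5e-07) and Clec14a with 0.36 (SE 0.06, adjusted p = 2.6e-05). The Flt1 probe sets disagreed, a second one differing by -1.34 on the log2 scale. Second probe sets kept the direction but not the size for Flt4 (0.20), Clec14a (0.98) and Lyve1 (3.84). Cdh5, the VE-cadherin of adherens junctions, was higher in liver by 0.34 (SE 0.08, adjusted p = 0.00060) with overlap.

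The genes higher in kidney were led by Pcdh17, which ran from 2.99 to 3.70 (median 3.39) in liver and from 7.88 to 8.73 (median 8.23) in kidney. Esm1 ran from 2.94 to 3.23 (median 3.12) and from 6.67 to 7.29 (median 6.93), and Emcn from 5.80 to 6.08 (median 5.89) and from 9.12 to 9.55 (median 9.24). The liver values of all 3 were below the median of all probe sets on every array. The liver minus kidney difference was -4.88 for Pcdh17 (SE 0.11, adjusted p = 8.3e-18), -3.85 for Esm1 (SE 0.07, adjusted p = 5.0e-19) and -3.37 for Emcn (SE 0.06, adjusted p = 1.2e-19). Cd34, a sialomucin of capillaries and progenitor cells, differed by -2.46 (SE 0.08, adjusted p = 2.2e-15) and Cav1 by -2.32 (SE 0.05, adjusted p = 7.8e-18). Vegfa was higher in kidney by a smaller amount (-0.82, SE 0.08, adjusted p = 3.1e-08), but its second probe set was not called (-0.17, adjusted p = 0.10). Pecam1 was also higher in kidney (-0.34, SE 0.08, adjusted p = 0.00091), and Kdr was not called (-0.13, SE 0.07, adjusted p = 0.11). Angpt2 (-1.99) and Notch4 (-1.42) were higher in kidney by the probe set used, but a second Angpt2 probe set differed by 0.36 and the other Notch4 probe sets by -0.14 and 0.03. The second probe set gave -3.05 for Pcdh17, and -4.25 for Aplnr in place of -0.82.

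**Figure D4:**
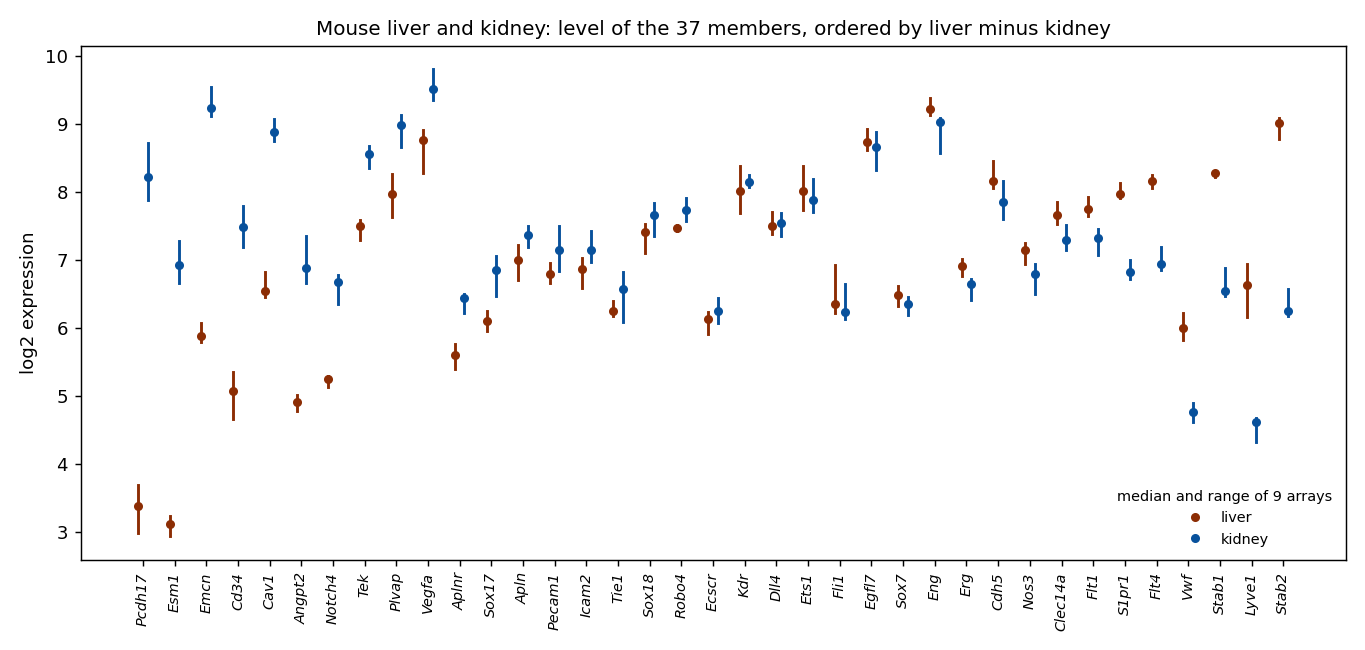
The vertical axis gives log2 expression in mouse liver and kidney for each of the 37 genes, ordered along the horizontal axis from the most kidney-high to the most liver-high, with the median of 9 arrays as a point and their range as a line. Pcdh17, Esm1 and Emcn stand at one end, with liver medians of 3.39, 3.12 and 5.89, and Stab1, Lyve1 and Stab2 at the other.

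The rat and mouse comparisons share no samples, so the change in rat liver at 5 μg Se/g was set beside the mouse tissue difference, over the 34 genes on both arrays. Across genes, which are not independent replicates, Pearson's r was -0.68 and Spearman's rho -0.57, and -0.53 and -0.49 without Pcdh17 and Esm1. Over all genes on both arrays both were -0.11. The sign is such that genes lower in mouse liver than in kidney tended to have the larger rise in rat liver. Of the 8 members at least 2-fold lower in mouse liver, 6 rose in the rat (8.39% of the 1501 genes of that kind did), with a median change of 1.51. Of the 20 within 2-fold, 8 rose (2.8% of all such genes), and of the 6 at least 2-fold higher in mouse liver 1 did (2.53%), Vwf. The groups depend on the mouse probe set. With the probe sets of each gene averaged, Angpt2, Notch4 and Flt4 left the groups beyond 2-fold and Aplnr joined the lower one. The counts were then 5 of 7 lower, 9 of 22 within and 1 of 5 higher (8.95%, 2.89% and 2.39% of all such genes). For these r was -0.68 and rho -0.59. With the second probe set where a gene had one the counts were 6 of 8, 8 of 21 and 1 of 5 (8.81%, 2.86% and 2.48%). There r was -0.59 and rho -0.58, and Flt1 was among the lower genes. Apln was an exception of size, with a rat change of 3.16 beside a tissue difference of -0.38.

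**Figure D5:**
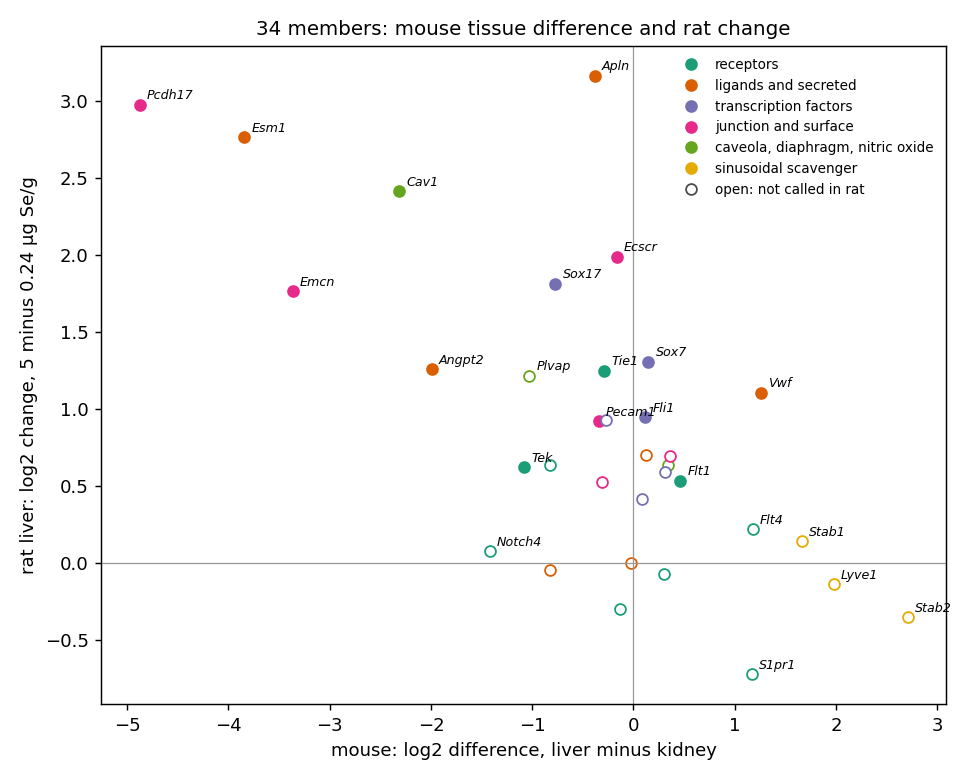
The horizontal axis gives the log2 difference, liver minus kidney, in mouse and the vertical axis the log2 change in rat liver, 5 minus 0.24 μg Se/g, with 1 point per gene for 34 genes, coloured by role and open where the rat change was not called. Pcdh17, Esm1, Emcn and Cav1 lie at the upper left, and Stab1, Stab2, Lyve1 and S1pr1 at the right, between -0.72 and 0.14 on the vertical axis.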

How the data were processed

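RNA from rat liver, mouse liver and mouse kidney was measured on Affymetrix whole-genome expression arrays for rat and mouse, 36 in all with 3 per group. Liver and kidney of the same mice were used. The authors deposited log2 expression values per probe set. The study's methods name RMA and the submitters' processing notes GCRMA, with each rat study and each mouse tissue processed apart. No detection calls were used, so precision is limited by the number of arrays. After leaving out 57 rat and 64 mouse array controls, 31042 rat and 45037 mouse probe sets were tested. Gene symbols came from the platform annotation, in which 20826 rat and 34945 mouse probe sets had 1 symbol, 436 and 932 several, and 9780 and 9160 none. All per-sample columns matched a labelled sample.

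Groups came from the sample labels. Where a gene had several probe sets, that of highest mean over the arrays of the tissue, or of both tissues compared, was used. limma 3.58.1 in R 4.3.3 fitted 1 mean per diet and tissue, with eBayes and Benjamini-Hochberg adjustment over all probe sets, on the 12 arrays of the rat study with 0, 0.24, 2 and 5 μg Se/g, on the 6 arrays of the other, on 9 arrays per mouse tissue, and on all 18 mouse arrays for the tissues. Intervals of 95% used the residual degrees of freedom. The fit was tested on simulated data. Genes named with values were all called members, or the 3 with the lowest p where none was called; in the tissue comparison the 3 sinusoidal genes and 5 others per direction; Kdr, Flt1, Cdh5, Pecam1, Vegfa, Stab1, Stab2 and Lyve1; and up to 4 genes of each other list by lowest p. The members and all lists were chosen with earlier results of these data known.

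Same-numbered arrays counted as paired where all 3 correlations of deviations were above 0.1. That held in mouse liver at 0 and 0.2 μg Se/g alone (0.105 to 0.462). The labels do not say that replicate numbers link animals of different diets. Alternatives were other sets of arrays, trend and robust moderation, array weights, a filter on low means, quantile normalization, averaged or second probe sets, a replicate block, and each array left out. A fit without the 2 μg Se/g arrays, and other mouse probe sets beside the rat change, were added after seeing the data. Promoter windows came from RefSeq. Figures were drawn with matplotlib 3.10.9 in Python 3.11.15.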

Additional observations from a re-analysis of the deposited data

How the results depend on the processing

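Of the 169 recounts of called members, 158 lay within 1.5 times the count reported. Most recounts belong to comparisons that called 0 members, where 0 was nearly always found again. The 11 outside that range were all in rat comparisons that use the 2 or 5 μg Se/g diet, so the total says little of those counts. For rats at 5 against 0.24 μg Se/g 15 were called, with 875 of all probe sets. Array weights gave 23 (21 of them higher), with 3184 of all probe sets. The other alternatives gave 10 to 18, the 10 being with the filter on low means (615 probe sets). The replicate block, whose numbers did not pair these arrays, gave 13 (783), and only the arrays compared gave 11 (787). All rat arrays gave 18 (1193), 17 of them higher. Without the arrays at 2 μg Se/g there were 18 (1382), all higher. Leaving out 1 array gave 7 to 19. Array weights also called 7 members at 2 against 0.24, where 0 were called, with 13048 of all probe sets called. At 5 against 2 (18 called) the fit on only those arrays called 0 (9 of all probe sets), and leaving out 1 array gave 4 to 22, the low count being without replicate 2 at 2 μg Se/g. Leave-one-out counts were 0 to 1 at 2 against 0.24, 32 to 33 for mouse liver against kidney (32 with liver and kidney arrays of a diet and number as 1 block, whose deviations correlated at -0.114 to 0.249), and 0 in every other comparison. Over the other alternatives the count for mouse liver against kidney was 24 to 35. In mouse liver at 0 against 0.2 μg Se/g, where same-numbered arrays met the correlation rule, the block also called 0. It changed no other count by over 1.5 times. Among 1405 values of single genes under the alternatives, 1252 kept their direction and side of the threshold, 131 fell short of it, 8 passed it and 14 changed sign. With a second probe set the sign changed for Fli1 (-0.18) and Lyve1 (0.13) at 5 against 0.24, Kdr at 2 against 0.24 (-0.068) and at 5 against 2 (0.058), Flt1 at 5 against 2 (-0.32), Erg at 0 against 0.24 (-0.042), Flt1 in mouse liver against kidney (-1.34, and -0.20 averaged) and Angpt2 in the test between tissues (-0.063). Vegfa at 5 against 0.24 became 0.004 without replicate 2 at 5 and 0.038 without replicate 3 at 0.24 (-0.131 to 0.038 over the arrays left out), and Lyve1 at 5 against 2 became -0.10 with array weights, -0.156 without replicate 3 at 5 and -0.162 without replicate 1 at 2 (-0.162 to 0.154 over the arrays left out). None of these was called in the sign shown except the Flt1 tissue values. The causes were not tested.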
